A study of Mus musculus with 2 samples.

Results

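The 10 immediate early transcription factors Fos, Fosb, Fosl2, Jun, Junb, Egr1, Ier2, Nr4a1, Nr4a2 and Nr4a3 were followed in brown fat from between the shoulder blades of mice (interscapular brown adipose tissue, iBAT), which burns lipid to make heat. They were taken by gene symbol from a list written with earlier results of these data known. All 10 were found in both count tables among 27179 listed genes, and all 10 were among the 15212 genes examined, those whose normalised counts averaged 10 or more over the 2 libraries. The tissue came from untreated 20-day-old C57BL/6N mice, described as male, that were either wild-type (WT) or carried a Ucp1 knockout (Ucp1-KO, Δ/Δ), the gene for the uncoupling protein of brown fat mitochondria. Each genotype was represented by 1 directional poly-A RNA-seq library made from 3 pooled animals. With 1 library per genotype no difference has a replicate check, no test was possible and every interval below covers counting error only.

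Immediate early genes are switched on within minutes of a stimulus by transcription factors that are already present in the cell, without new protein synthesis. SRF with its ternary complex factors carries growth factor and MAP kinase signals to them, and CREB carries cyclic AMP signals. In brown adipocytes noradrenaline raises cyclic AMP through beta-adrenergic receptors, and FOS, JUN and NR4A genes are among the known early targets. Most of their messages and proteins are short-lived, and their levels can change within the time that a dissection takes.

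The libraries differed by more than the targeted transcript. Ucp1 had 366473 counts in the WT library and 37853 in the Ucp1-KO library, and its log2 ratio (Ucp1-KO over WT) was -2.98. Total depth was 52950913 and 53216727 counts, of which mitochondrially encoded genes held 22.4% in the WT and 36.7% in the Ucp1-KO library. The Y-linked Ddx3y, Uty, Kdm5d and Eif2s3y were listed at 0 in the WT library and at 491 to 3446 counts in the Ucp1-KO library, while Xist had 32380 and 16478 counts. The lack of Y-linked counts beside the Xist counts in the WT library goes against the description as male. In the Ucp1-KO library Y-linked and Xist counts occurred together. Sex and genotype of the pools thus cannot be told apart. All 10 brown adipocyte markers were detected at 746 counts or more in both libraries and made up 1.78% and 1.77% of all counts. The 15 skeletal muscle markers were all lower in the Ucp1-KO library, from 0.631% to 0.0758% of counts, and 11 of 12 endothelial markers were lower, from 0.266% to 0.133%. Macrophage markers held 0.0167% in each library, fibroblast markers 0.205% and 0.149%, and monocyte and neutrophil markers 0.000805% and 0.00108%. Of the last, 2 markers named after their values were seen had a count of 0, Retnlg in both libraries and Mpo in the WT library only, with 12 counts in the other. All these shares are of total counts. With the normalised counts used for the factors, the log2 ratio of the sums was 0.30 for brown adipocyte and 0.30 for macrophage markers. It was -0.15 for fibroblast, 0.73 for monocyte and neutrophil, -0.70 for endothelial and -2.75 for muscle markers. On that scale 4 of 13 macrophage markers were at least 2-fold higher, beside 7.42% of all genes examined. Of the brown adipocyte markers 8 were higher and 2 lower, Retn (-1.90) and Cfd (-0.92). The part of these differences in the values of the immediate early factors was not tested. In such bulk tissue fewer cells of a type and less RNA per cell cannot be told apart.

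Of the 10 factors, 8 had a higher normalised count in the Ucp1-KO library and 2 a lower one. Nr4a3 stood highest with a log2 ratio of 3.40, followed by Egr1 with 1.80, Fosb with 1.79, Fos with 1.43 and Nr4a1 with 1.01. Junb, Jun and Nr4a2 differed by less than 2-fold, Ier2 was within counting error of equality and Fosl2 was lower. The median over the 10 factors was 0.90, beside a median of -0.0016 over all genes examined. At least 2-fold higher were 5 of 10, beside 7.42% of all genes examined, and at least 2-fold lower were 0 of 10, beside 9.55%. The counting interval lay above 0 for 8 of 10, beside 31.5% of all genes, and below 0 for 1 of 10, beside 30.5%. It lay wholly beyond 2-fold for Nr4a3, Egr1, Fosb and Fos, 4 of 10 beside 2.72% of all genes, and for 0 of 10 in the lower direction, beside 3.72%. Counts summed over the 10 genes were 7959 in the WT and 9680 in the Ucp1-KO library, 0.0150% and 0.0182% of all counts.

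**Figure D1:**
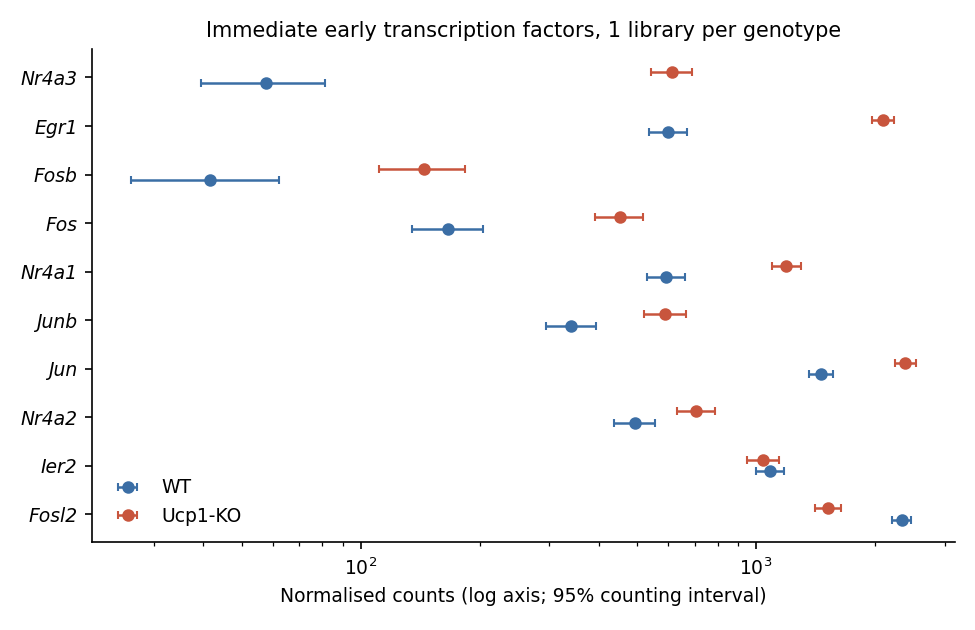
Normalised counts (log axis) of each factor in the WT library (blue) and the Ucp1-KO library (red), 1 library per genotype, with 95% Poisson intervals on read pairs as bars. The intervals of the 2 libraries are apart for 9 genes and overlap for Ier2, and Fosl2 is the one gene of those 9 with the higher value in WT.

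The NR4A genes encode orphan nuclear receptors that bind DNA without a known hormone and are induced by cyclic AMP in many tissues. Nr4a3 (NOR1; Entrez 18124, chromosome 4, 48045153 to 48086447, plus strand, GRCm39) had 64 counts in the WT and 552 in the Ucp1-KO library. Normalised, these were 57.7 (39.5 to 81.4) and 612 (542 to 689), a 10.5-fold difference (7.35 to 15.8). Only 0.703% of the genes examined had a higher log2 ratio, which put Nr4a3 at rank 108 of 15212. Nr4a1 (NUR77; Entrez 15370, chromosome 15, 101151980 to 101172681, plus strand) had 657 and 1076 counts, normalised 592 (530 to 660) and 1194 (1095 to 1299). Its log2 ratio of 1.01 (0.81 to 1.21) lay at the edge of the 2-fold size rule and was 0.70 with total-count scaling, 0.999 with TMM factors and 0.99 with totals that left out mitochondrial and muscle genes. Nr4a2 (NURR1; Entrez 18227, chromosome 2, 56996842 to 57014331, minus strand) had 548 and 636 counts, normalised 494 (437 to 556) and 706 (630 to 788). Its log2 ratio was 0.51 (0.28 to 0.75), and with total-count scaling it was 0.21 with an interval that included 0 (-0.03 to 0.45). The log2 ratios of the 3 receptors thus had intervals that were all apart from each other.

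Because shares within a family do not depend on how the libraries are scaled, the make-up of each family was compared as well. Nr4a3 held 5.04% of the 1269 NR4A counts in the WT library (exact binomial interval 3.47 to 7.05%) and 24.4% of 2264 in the Ucp1-KO library (21.9 to 27.0%). Nr4a2 went from 43.2% (39.3 to 47.1%) to 28.1% (25.5 to 30.8%). The share of Nr4a1 was 51.8% (47.8 to 55.7%) and 47.5% (44.6 to 50.5%), with intervals that overlapped. Nr4a3 had the fewest NR4A counts in WT iBAT, and in the Ucp1-KO library its interval overlapped that of Nr4a2.

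Windows upstream of the RefSeq start sites are shown for 5 factors with log2 ratios from 0.71 to 3.40, to set the cyclic AMP response element (CRE) half-site, TGACG on either strand, beside their values. They were taken from RefSeq promoter sequences of GRCm38.p6 (250 bases before to 50 after the start), matched exactly to GRCm39, trimmed to bases outside annotated exons and written 5′ to 3′ on the gene's strand. Half-sites are in capitals, as CGTCA where they lie on the opposite strand.
Nr4a3, chr4:48045055-48045152, plus strand: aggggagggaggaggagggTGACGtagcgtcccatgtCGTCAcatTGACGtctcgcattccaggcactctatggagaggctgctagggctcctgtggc
Nr4a1, chr15:101164477-101164656, plus strand: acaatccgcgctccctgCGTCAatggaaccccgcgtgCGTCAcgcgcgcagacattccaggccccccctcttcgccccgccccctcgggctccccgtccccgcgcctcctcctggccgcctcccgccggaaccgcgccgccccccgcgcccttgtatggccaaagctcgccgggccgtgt
Fos, chr12:85520414-85520657, plus strand: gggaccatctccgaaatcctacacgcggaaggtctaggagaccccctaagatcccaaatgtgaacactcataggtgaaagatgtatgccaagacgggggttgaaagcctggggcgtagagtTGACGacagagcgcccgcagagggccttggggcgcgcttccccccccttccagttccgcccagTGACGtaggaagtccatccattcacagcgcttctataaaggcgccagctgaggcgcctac
Fosb, chr7:19043977-19044220, minus strand: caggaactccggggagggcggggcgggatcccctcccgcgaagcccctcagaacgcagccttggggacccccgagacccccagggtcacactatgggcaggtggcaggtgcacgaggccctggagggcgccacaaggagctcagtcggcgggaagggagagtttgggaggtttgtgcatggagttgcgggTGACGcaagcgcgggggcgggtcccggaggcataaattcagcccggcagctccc
Jun, chr4:94940460-94940709, minus strand: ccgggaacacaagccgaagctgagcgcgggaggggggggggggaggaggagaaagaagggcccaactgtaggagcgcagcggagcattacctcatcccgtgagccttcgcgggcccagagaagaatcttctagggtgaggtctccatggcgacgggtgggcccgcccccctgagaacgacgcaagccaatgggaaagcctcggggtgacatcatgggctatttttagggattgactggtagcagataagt
The windows of Nr4a3, Fos, Fosb and Jun end directly before the annotated start of the gene, and that of Nr4a1 lies between exons inside the gene span.

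In the full 300-base windows, Nr4a1, Nr4a2 and Nr4a3 each held 4 CRE half-sites, of which 3 of Nr4a3 and 2 of Nr4a1 lie in the stretches shown. Fos held 2, Fosb and Junb 1 each, and Jun and Fosl2 none. Among 32851 promoters of that length 20.8% held at least 1 half-site, 5.01% at least 2 and 0.231% at least 4, whereas 6 of the 8 factors with an entry held at least 1. Egr1 and Ier2 had no entry. For Fosl2 and Nr4a2 all 250 bases before the RefSeq start lay in annotated exons of the gene. Nr4a2 and Nr4a3 shared the number of half-sites and had log2 ratios of 0.51 and 3.40. Jun and Fosl2, with none, had 0.71 and -0.62. The palindromic CRE TGACGTCA, in which 2 half-sites overlap, was in 0 of 8 windows and 1.79% of all. The EGR site GCGNGGGCG was in 4 of 8 (Fosb, Fosl2, Nr4a1 and Nr4a2) and 5.55% of all, and TATAAA was in 3 of 8 (Fos, Junb and Nr4a2) and 13.6%. The AP-1 site TGANTCA (7.81% of all), the NR4A site AAAGGTCA (1.51%) and the CArG box bound by SRF (1.63%) were in 0 of 8. Matches are descriptions of letters on both strands and not of binding, and the lack of a match says only that these letters are not in this window.

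FOS proteins pair with JUN proteins to form AP-1, and the 4 FOS genes went in both directions. Fos (Entrez 14281, chromosome 12, 85520658 to 85524047, plus strand) had 185 counts in the WT and 407 in the Ucp1-KO library. Normalised, these were 167 (135 to 204) and 452 (392 to 518), a 2.70-fold difference (2.11 to 3.50). Fosb (Entrez 14282, chromosome 7, 19036621 to 19043976, minus strand), whose products include the long-lived variant delta-FOSB, had 46 and 130 counts, the fewest of the 10 factors in both libraries. Its fold difference of 3.45 therefore had a wide interval of 2.13 to 5.87. Fosl2 (FRA2; Entrez 14284, chromosome 5, 32292707 to 32315186, plus strand), which lacks the strong activation domain of FOS and is a later and more persistent member of the family, had 2592 and 1371 counts. It was the single factor with an interval below 0, at normalised 2336 (2211 to 2467) and 1521 (1409 to 1639), a log2 ratio of -0.62 (-0.75 to -0.48). Fosl1, which is not among the 10 and was added after its values were seen, had 5 and 3 counts, both under the limit of 6 counts that a count of 0 allows.

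The FOS family was thus mostly Fosl2 in the WT library and less so in the Ucp1-KO library. Fosl2 held 91.7% of 2828 FOS counts in WT (90.1 to 93.0%) and 71.7% of 1911 in Ucp1-KO (68.8 to 74.6%). Fos went from 6.54% (5.31 to 7.96%) to 21.3% (18.7 to 24.0%) and Fosb from 1.63% (1.03 to 2.43%) to 6.80% (5.29 to 8.59%). Per kilobase of exonic sequence, which corrects for the long Fosl2 message, Fos was 23.2% of the family in WT and 52.8% in Ucp1-KO, and Fosl2 73.8% and 40.4%. With the longest transcript as the length, Fos reached 45.3% and Fosl2 46.2% in the Ucp1-KO library. Their normalised counts per kilobase then overlapped there, at 214 (185 to 245) and 218 (202 to 235). A higher level of Fos than of Fosl2 in the Ucp1-KO library thus held with exonic sequence and not with the longest transcript.

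JUN proteins can form AP-1 with each other as well as with FOS proteins. Jun (Entrez 16476, chromosome 4, 94937271 to 94940459, minus strand), a gene of a single exon, had 1619 and 2149 counts, normalised 1459 (1360 to 1563) and 2384 (2244 to 2531). The log2 ratio of Jun was 0.71 (0.58 to 0.84). Junb (Entrez 16477, chromosome 8, 85701113 to 85705359, minus strand), which can restrain the activity of JUN, had 378 and 530 counts and a log2 ratio of 0.79 (0.51 to 1.06). Shares within the family were compared in the same way. Jun held 41.4% (39.2 to 43.7%) of 3907 JUN counts in WT and 35.9% (34.2 to 37.6%) of 5988 in Ucp1-KO, and Junb 9.67% (8.40 to 11.1%) and 8.85% (7.86 to 9.93%). Jund, the constitutive member of the family, was added after its values were seen. It had 1910 and 3309 counts, and its log2 ratio of 1.09 (0.98 to 1.21) was above that of Jun, while its interval overlapped that of Junb.

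**Figure D2:**
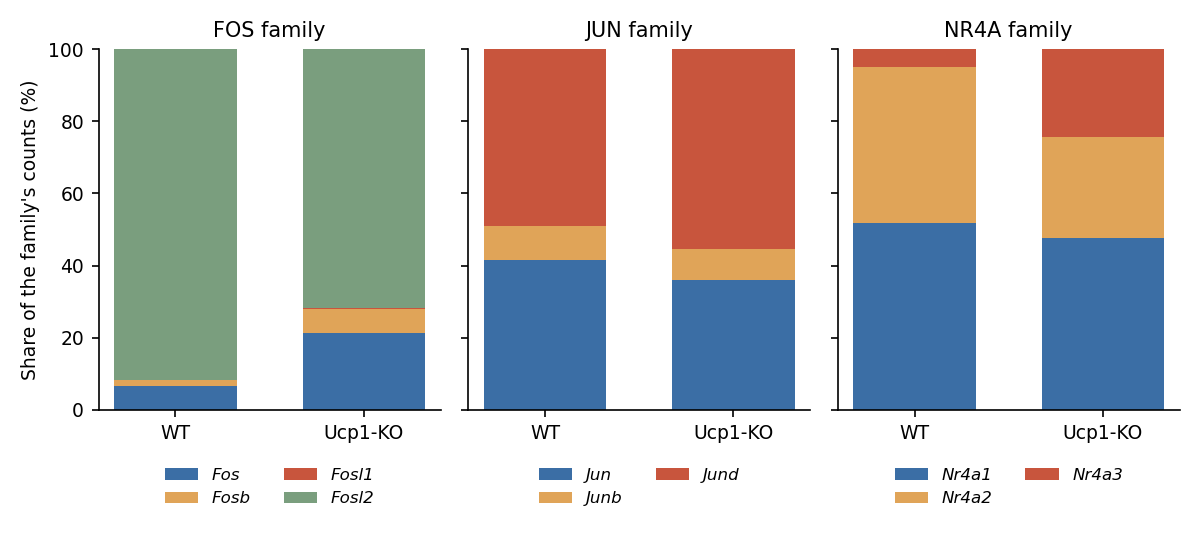
Share of each family's counts (percent, stacked to 100) held by each FOS, JUN and NR4A gene in the WT and Ucp1-KO library, 1 library each. Fosl2 shrank from 91.7% to 71.7% of FOS counts and Nr4a3 grew from 5.04% to 24.4% of NR4A counts, while Jun went from 41.4% to 35.9% of JUN counts.

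EGR1 is a zinc finger factor induced through SRF by MAP kinase signalling, and IER2 is a small nuclear protein of the early response. Egr1 (Entrez 13653) had 666 counts in the WT and 1890 in the Ucp1-KO library, normalised 600.3 (538 to 668) and 2097 (1965 to 2235). The fold difference of 3.49 had a narrow interval of 3.08 to 3.97, and 2.64% of the genes examined had a higher log2 ratio. Ier2 (Entrez 15936, chromosome 8, 85387960 to 85389483, minus strand) had 1204 and 939 counts, normalised 1085 (1000 to 1176) and 1042 (949.6 to 1140). Its log2 ratio was -0.06 (-0.24 to 0.12) and its sign depended on the scaling, with -0.37 (-0.54 to -0.19) for total counts and 0.03 for the reference genes Tbp, Hsp90ab1 and Gtf2b. At the depth of these libraries a difference of Ier2 was thus not detectable with the median-of-ratios scaling.

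**Figure D3:**
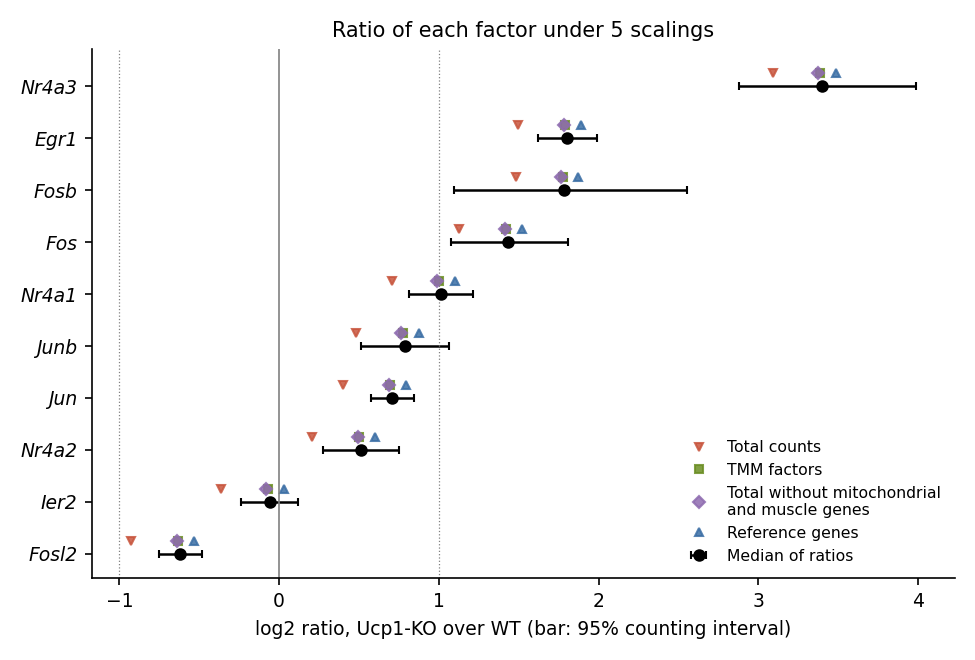
The log2 ratio (Ucp1-KO over WT) of each factor with median-of-ratios scaling (black, with its 95% counting interval) and with 4 other scalings (coloured symbols), dotted lines marking 2-fold. Total counts move all genes down by 0.31, and Ier2 is the one factor whose sign changes, at 0.03 with the reference genes.

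**Figure D4:**
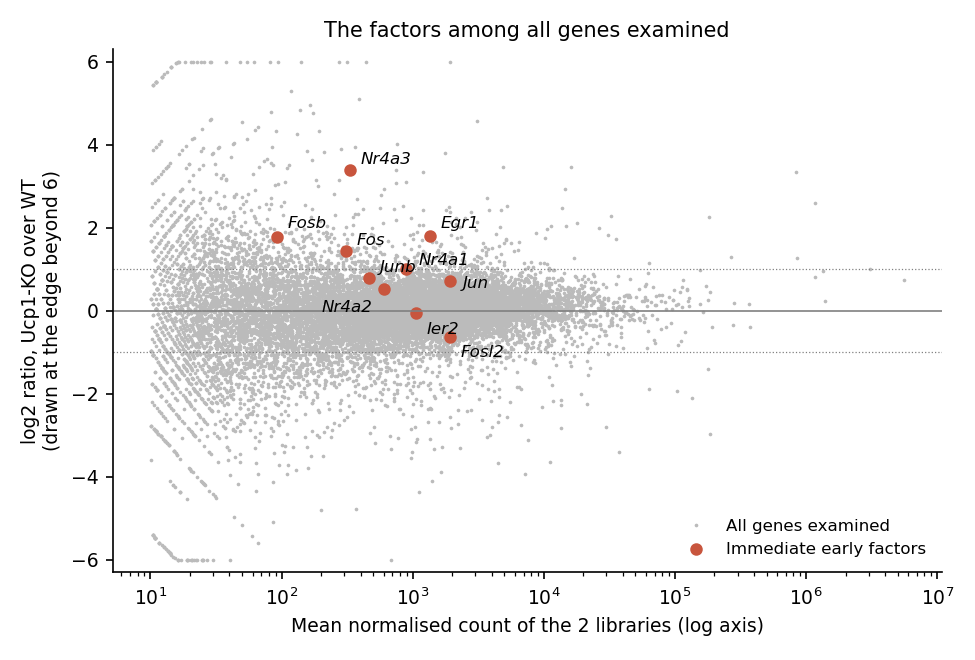
The log2 ratio (Ucp1-KO over WT) against the mean normalised count of the 2 libraries (log axis) for all 15212 genes examined (grey) and the 10 factors (red, named), dotted lines marking 2-fold. The factors have mean normalised counts from 92.8 (Fosb) to 1929 (Fosl2), and Nr4a3 lies farthest from the bulk of the genes.

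Levels of different genes were compared as normalised counts per kilobase of exonic sequence. In the WT library Ier2 was highest at 712 (656 to 771), followed by Jun at 457.6 (427 to 490) and Fosl2 at 225 (213 to 237). Junb at 143 (123 to 165) and Egr1 at 134 (120 to 149) did not differ beyond counting error with this length. Fos at 70.7, Nr4a2 at 60.2 and Nr4a1 at 54.3 had overlapping intervals, and so had Nr4a3 at 9.64 (6.59 to 13.6) and Fosb at 6.64 (4.21 to 9.97) at the bottom. In the Ucp1-KO library Jun at 748 (704 to 794) and Ier2 at 684 (623 to 748) overlapped at the top, and Egr1 came next at 466 (437 to 497). Junb at 247 (218 to 279) and Fos at 191 (166 to 220) had intervals that just overlapped, and Fosl2 followed at 146 (136 to 158). Nr4a1 at 109, Nr4a3 at 102 and Nr4a2 at 86.0 overlapped in neighbouring pairs, and Fosb was again the lowest at 23.1. Nr4a1 depended most on the length used, because its exons cover 10903 bases and its canonical transcript 2548 bases. With the canonical transcript its level was 232 in WT and 469 in Ucp1-KO, rank 4 and rank 3 of 10. Other orders depended on the length as well. With the longest transcript, Junb in the WT library was at 188 (162 to 217), apart from Egr1 at 134 (120 to 149). In the Ucp1-KO library Junb was then at 325 (287 to 367), apart from Fos at 214 (185 to 245), and Fosl2 at 218 (202 to 235) overlapped Fos.

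Most of the 10 genes span little sequence and have few exons, while their messages are of ordinary length. Their median span was 6265 bases beside 26154 for the 13814 protein-coding genes examined with an annotation, and 9 of 10 were below that median, Nr4a3 with 41295 bases being the exception. All 10 had fewer exons in the canonical transcript than the median of 9 over all genes, with a median of 4, and Jun, Junb and Ier2 had 1 exon, as had 2.19% of all genes. The canonical transcript had a median length of 3486 bases beside 3463 for all genes, and the 3′ untranslated region 1231 beside 1324 bases. The pentamer ATTTA, the core of AU-rich elements that mark short-lived messages, was found in the 3′ untranslated region of 9 of 10 factors and of 74.1% of 13268 genes with such a region of 100 bases or more, Ier2 being the one without it. The overlapping form ATTTATTTA was found in Fos alone of the 10, and in 7.36% of all genes. Exons of 4 factors overlap annotated exons of genes on the opposite strand, Fosl2 over 425 bases (Gm72529), Jun over 528 (Junos), Junb over 173 (Prdx2) and 145 (Gm65321) and Nr4a1 over 656 (Gm63180). The strand setting of the counting was not given in the sources used here, and the counts of these 4 factors are uncertain to that extent.

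The other genes of the same response did not all go the way of the 10 factors. Of the 10 other AP-1 and small MAF factors examined, 6 had intervals above 0 and 0 below, beside 31.5% and 30.5% of all genes examined. The median log2 ratio of these factors was 0.43. Atf3, a stress-induced repressor that pairs with JUN, had 274 counts in WT and 5320 in Ucp1-KO. Its log2 ratio of 4.58 (4.33 to 4.84) was above that of Nr4a3. Batf had 6 and 24 counts (2.20, 0.41 to 4.76), and Batf2 25 and 8 counts (-1.30, -3.43 to 0.36). Of the relatives of Egr1, Egr2 had 58 and 74 counts and a log2 ratio of 0.65 (-0.09 to 1.40), Egr3 12 and 8 counts, and Egr4 was at 0 in both libraries. The corepressors of EGR factors, Nab1 and Nab2, had log2 ratios of 0.28 (0.18 to 0.38) and -0.07 (-0.37 to 0.23), and with total-count scaling the interval of Nab1 (-0.03) included 0 and that of Nab2 (-0.38) was below 0. Egr1 was thus the one EGR gene with an interval apart from 0.

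The 15 other immediate early regulators of transcription were mixed, with a median of -0.13. Of their intervals 4 were above 0 and 8 below, beside 31.5% and 30.5% of all genes examined. Myc, a driver of growth and of ribosome production, was highest at 1.82 (1.53 to 2.14), with 244 counts in WT and 703 in Ucp1-KO. Nfil3, a repressor in the circadian clock, had 0.74 (0.61 to 0.87), and Bhlhe40, another clock repressor, was lowest at -1.53 (-1.67 to -1.38). Of 22 immediate early effectors that are no transcription factors, 8 had intervals above 0 and 8 below, shares near the 31.5% and 30.5% of all genes examined, and the median was 0.072 (-0.23 with total counts). Tnfaip3, an inhibitor of NF-κB signalling, had a log2 ratio of 2.45 (2.17 to 2.75), Arc, known as a synaptic early gene, 2.25 (1.87 to 2.67) and the kinase Plk3 1.26 (0.99 to 1.53). Other early genes of this list, chosen after their values were seen, lay on both sides of 0. Lower were Btg2 at -0.13, Zfp36 at -0.29, Rhob at -0.74 and Sik1 at -0.63. Higher were Gadd45a at 0.66, Ccn1 at 0.43, Btg1 at 0.29 and Ccn2 at 0.22 (0.006 to 0.43). Total-count scaling, which moves all genes down by 0.31, puts Btg1 and Ccn2 below 0.

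The MAP kinase phosphatases and feedback inhibitors, which early signalling induces and which switch it off, were mostly higher. Their median was 0.68 (0.38 with total counts). Of 12 intervals 8 were above 0 and 1 below, beside 31.5% and 30.5% of all genes examined. Dusp10, which acts on p38 and JNK, had 1455 and 3150 counts and a log2 ratio of 1.41 (1.29 to 1.54). Dusp5, an ERK phosphatase of the nucleus, had 58 and 106 counts (1.16, 0.49 to 1.88), and Dusp2 10 and 21 counts (1.32, -0.29 to 3.26). The one member with an interval below 0 was Errfi1, an inhibitor of EGF receptor signalling, at -0.85, named after its value was seen.

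The factors that act upstream of the 10 genes differed less. Of SRF and its cofactors Mrtfa was higher at 0.62 (0.38 to 0.86), Mrtfb had 0.16 (0.03 to 0.29) and the ternary complex factor Elk3 was lower at -0.90 (-1.01 to -0.80), while Srf at 0.11, Elk1 at -0.17 and Elk4 at -0.0039 were within counting error. These small differences depended on the scaling, since with total counts the intervals of Mrtfb (-0.15), Srf (-0.20), Elk1 (-0.47) and Elk4 (-0.31) were all below 0, and with reference genes that of Srf (0.20) was above 0. Of the CREB family Crem, itself induced by cyclic AMP, was highest at 0.55 (0.37 to 0.72), followed by Atf1 at 0.44 (0.29 to 0.58). The coactivators Crtc2 at 0.34 and Crtc3 at 0.28 had intervals above 0, and Crtc1 at 0.17 and Creb1 at -0.06 were within counting error. With total counts Atf1 (0.13), Crtc2 (0.029) and Crtc3 (-0.031) had intervals that included 0, and that of Creb1 (-0.37) was below 0. Of 12 upstream kinases 6 had intervals above 0 and 2 below, beside 31.5% and 30.5% of all genes examined, and none reached 2-fold. Prkaca, the catalytic subunit of protein kinase A, was highest at 0.54 (0.46 to 0.63), followed by Rps6ka1 at 0.42 (0.11 to 0.73) and Mapk8 (JNK1) at 0.38 (0.23 to 0.53). With total counts the intervals of Rps6ka1 (0.11) and Mapk8 (0.072) included 0.

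Genes that cyclic AMP induces in brown fat were divided as well, with a median of 0.13 (-0.18 with total counts). Of 8 intervals 4 were above 0 and 4 below, beside 31.5% and 30.5% of all genes examined. Dio2, which makes active thyroid hormone, had 12330 counts in WT and 48488 in Ucp1-KO, and with 2.28 (2.23 to 2.32) the highest log2 ratio of the list. Ppargc1a, a coactivator of mitochondrial biogenesis, had 1.89 (1.81 to 1.96), and Pde4d, a phosphodiesterase that breaks down cyclic AMP, was lowest at -0.98 (-1.05 to -0.91). Pck1, named after its value was seen, also counts among the intervals below 0. With 182573 and 145880 counts its log2 ratio was only -0.024 (-0.038 to -0.010). Of 10 examined genes with known AP-1 sites 7 had intervals above 0 and 3 below, beside the same shares of all genes. Their median was 1.205 (0.90 with total counts, 0.95 without the count filter). At least 2-fold higher were 5 and at least 2-fold lower 2, beside 7.42% and 9.55% of all genes examined. The 2 lower ones were Mmp9 at -2.08 and Ccnd1 at -1.13, both named after their values were seen. The macrophage elastase Mmp12 was highest at 3.45 (2.54 to 4.59) with 20 and 182 counts, ahead of Spp1 (osteopontin) at 2.57 (1.69 to 3.63) with 24 and 118 and Hmox1 (heme oxygenase) at 2.14 (1.98 to 2.30) with 803 and 2879. Mmp12 and Spp1 are also expressed by macrophages. Of 13 macrophage markers 6 had intervals above 0 and 1 below, again beside 31.5% and 30.5% of all genes examined. Their median was 0.13 (-0.18 with total counts), with a range from -0.47 (Cd163, named after its value was seen) to 2.04 (Itgam). The part of those cells in the values was not tested.

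**Figure D5:**
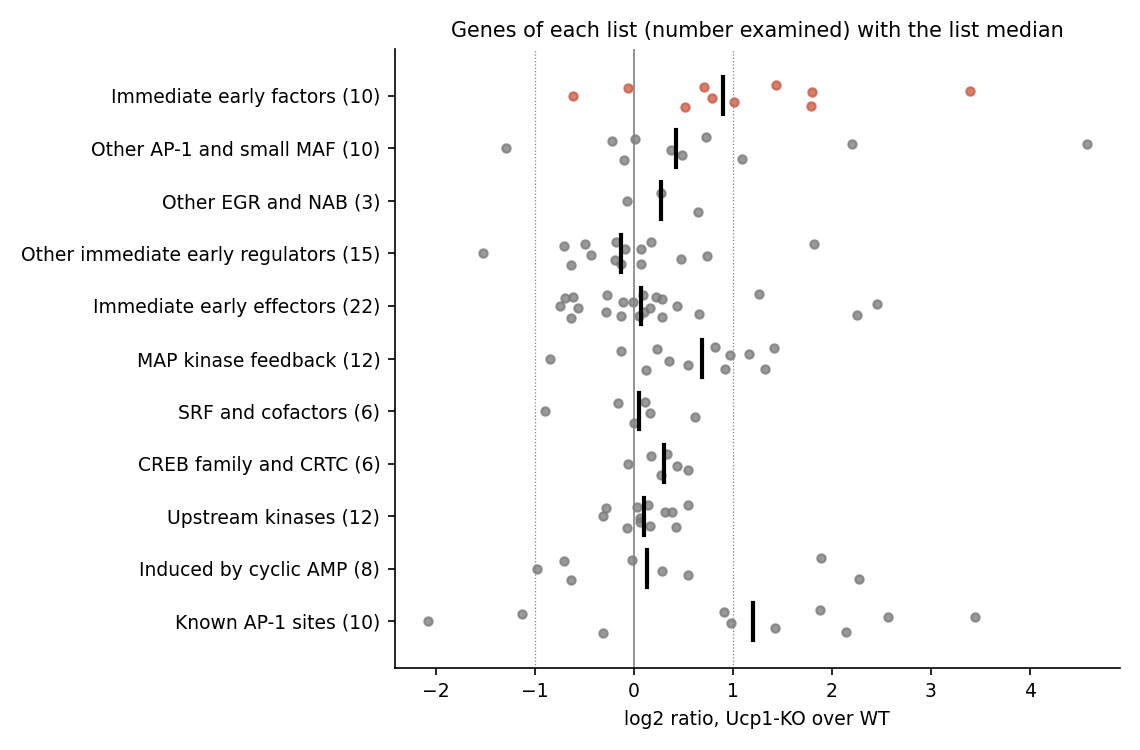
The log2 ratio (Ucp1-KO over WT) of each examined gene (points) in the 10 immediate early factors (red) and in 10 lists of related genes (grey), with the list median as a black bar and the number examined in brackets. The medians run from -0.13 for other immediate early regulators to 1.205 for genes with known AP-1 sites, beside 0.90 for the 10 factors.

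Among genes whose mean normalised count was 100 or more, the 3 whose log2 ratio was nearest to the 3.40 of Nr4a3 were Nceh1, a cholesterol ester hydrolase, at 3.39 (3.04 to 3.77), the small mitochondrial ribosomal RNA mt-Rnr1 at 3.35 (3.34 to 3.36) and Mmp12 at 3.45. Likeness here rests on 1 ratio between 2 libraries. The mitochondrial ribosomal RNAs mt-Rnr1 and mt-Rnr2 together held 1.01% of WT and 6.01% of Ucp1-KO counts in these poly-A libraries. The source of that difference, and its part in the other ratios, was not tested.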

How the data were processed

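The deposited values are raw counts per gene, which the authors made with featureCounts. The submitters' processing notes name Trim Galore, HISAT2 and the build mm39. The annotation and the settings for strand and read pairs were not given in the sources used here. Depth was 52950913 (WT) and 53216727 (Ucp1-KO) counts. Genes without a symbol (1319) were kept and held 0.156% and 0.121% of counts. Normalised counts are counts divided by the median-of-ratios factors of DESeq2 1.42.0 (R 4.3.3), 1.11 for WT and 0.901 for Ucp1-KO, and the log2 ratio used a pseudocount of 0.5. Because even values were over-represented among genes with 1 to 10 counts (70.7% and 73.4%), 95% intervals (exact Poisson, or Clopper-Pearson for ratios and shares; scipy 1.17.1) were computed on read pairs, taken as counts divided by 2. Among genes with 100 to 1000 counts even values made up 49.9% and 50.2%, so larger counts do not show this excess. With intervals on the counts as deposited, 8 of the 10 factors were likewise above 0 and 1 below. Reads are not independent molecules, so intervals cover counting error only. The interval code was tested on simulated data, which were drawn as read pairs of 2 counts and so could not check that choice. Gene structure came from GENCODE mouse release 39 (GRCm39), matched by symbol for 96.7% of the genes examined. Members and lists were chosen with earlier results of these data known. Named genes are the 10 members, every gene of lists of up to 6 genes, the 3 largest log2 ratios of longer lists and the 3 genes nearest to Nr4a3. Any other gene was picked with its values in view, and the text says so. Alternatives were edgeR 4.0.16 TMM factors, total counts (with and without mitochondrial and muscle genes), reference genes, a pseudocount of 5, other filters, size rules and lengths.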

Additional observations from a re-analysis of the deposited data

How the results depend on the processing

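No paired analysis was possible because there is 1 library for WT and 1 for Ucp1-KO, and leaving 1 out would leave no comparison. Total-count scaling, which shifts the median of all genes by -0.31, moved most values. It gave Fosl2 -0.93, Jun 0.40, Junb 0.48, Egr1 1.497, Ier2 -0.37, Nr4a1 0.70 and Nr4a2 0.21, a median over the 10 factors of 0.59, and 732 higher and 2320 lower genes against 1128 and 1453. Its list medians were 0.12 (other AP-1), -0.20 (EGR and NAB), -0.43 (other early regulators), -0.23 (effectors), 0.38 (MAP kinase feedback, against 0.68), -0.25 (SRF and cofactors), -0.0011 (CREB family), -0.20 (kinases), -0.18 (cyclic AMP) and -0.056 (brown adipocyte markers). Of the single genes named by the rule above, Nab1 (-0.029), Mrtfb (-0.15), Crtc3 (-0.031), Gtf2b (-0.10), Srf (-0.20) and Crtc1 (-0.14) turned negative. The total-count median of EGR and NAB also took in Egr3 (12 and 8 counts), which passed the filter with that scaling and not with the main one. Reference genes gave medians of 0.16 (effectors) and 0.22 (cyclic AMP). Higher and lower genes numbered 2187 and 2844 without a filter, 617 and 811 at a mean of at least 50, 603 and 796 at a log2 ratio of 1.5 (3 of the 10 factors, higher) and 414 and 566 with intervals wholly beyond 2-fold. Per-kilobase shares within the NR4A family, which with all exonic bases were 43.8% and 36.8% (Nr4a1, WT and Ucp1-KO), 48.5% and 28.9% (Nr4a2) and 7.76% and 34.4% (Nr4a3), were 67.1% and 64.7% (Nr4a1), 30.0% and 20.5% (Nr4a2) and 2.91% and 14.8% (Nr4a3) with the canonical transcript, a length chosen after seeing the data, and with the longest transcript 43.0% (Nr4a1, Ucp1-KO), 5.24% (Nr4a3, WT) and 25.5% (Nr4a3, Ucp1-KO). Of the log2 ratios of the 10 factors, 9 kept their sign under all 5 alternatives of scaling and pseudocount, and Ier2 did not (0.03 with reference genes). The scaling and pseudocount alternatives for the other named genes were added after seeing the data.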
